A study of Bos taurus with 9 samples.

Results

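In cultured bovine adrenal chromaffin cells, 98 probesets were lower after the neuropeptide PACAP while their mean level after the cytokine TNF-alpha stayed close to that of untreated cells. A probeset is a set of short array probes designed against 1 transcript or a group of related transcripts, and its value is a log2 expression level. The 98 members were chosen by their own measured values out of 24016 probesets, control probesets left aside, and they are 0.408% of them. The mean of the 3 PACAP arrays had to lie at least 1 log2 unit (2-fold) below the mean of the 3 untreated arrays. The PACAP minus untreated difference had to be -0.5 or lower between the arrays of each repeat number, and the mean TNF minus untreated difference had to lie between -0.4 and 0.4. The PACAP and TNF differences of the members are therefore given as a description, with no test.

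Total RNA came from primary cultures of cells (Bos taurus) that were dispersed with collagenase and DNase from perfused adrenal glands, purified by differential plating and kept in medium with fetal calf serum and cytosine beta-D-arabinofuranoside, a blocker of DNA replication. One group of 3 arrays held untreated cells, another cells exposed for 6 h to 100 nM PACAP-38, and the other cells exposed for 6 h to 10 nM TNF-alpha. The labels give no vehicle for the untreated cells, no breed, sex or age, and they do not say how many animals were used. The design text calls the arrays technical repeats, so the spread between arrays may not include the spread between animals or cultures. The study asked which genes each agent regulates and whether these are different genes.

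Chromaffin cells of the adrenal medulla make, store and secrete catecholamines and neuropeptides. PACAP is released from the splanchnic nerve onto these cells and acts mainly through the PAC1 receptor, a G protein-coupled receptor that raises cyclic AMP and calcium and changes transcription. TNF-alpha acts through its own receptors, with NF-kappaB as the best known transcription factor downstream. Genes that fall within hours of a stimulus have in general either lost transcription or had their mRNA degraded faster, and an expression array reads only the resulting mRNA level.

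The deposited table identifies probesets by array IDs without gene symbols, and 0 of the IDs matched the bovine RefSeq gene table. The members are therefore named by rank, from 1 for the largest mean fall with PACAP to 98 for the smallest, and no gene function can be given. Marker lists for chromaffin, cortical, fibroblast, endothelial, white blood, glial, muscle and red blood cells could not be located on the array. The labelled cell type was thus not checked, and the part of other cell types in the results was not tested. In such bulk RNA, fewer cells of a type and less RNA per cell cannot be told apart. The 9 arrays had median levels of 6.65 to 6.72, and repeat 3 stood apart from repeats 1 and 2 in each group.

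**Figure D1:**
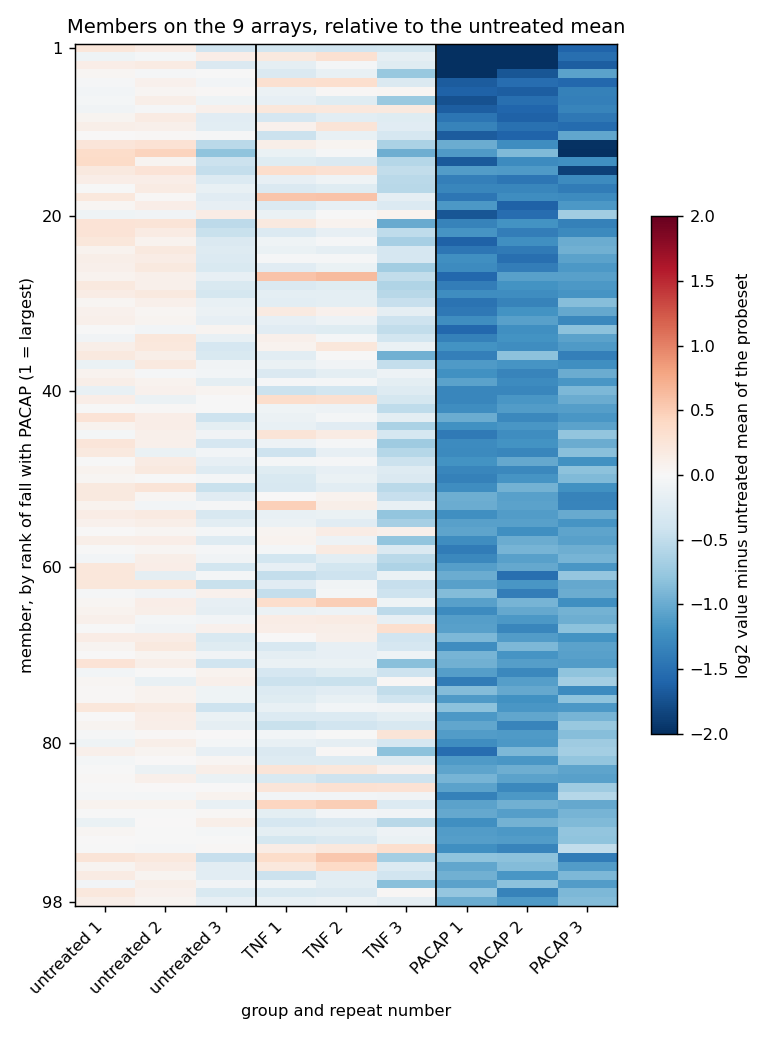
Colour map of the 98 members (rows, by rank) on the 9 arrays (columns, by group and repeat number), as log2 value minus the probeset's mean over the 3 untreated arrays, with colours saturating at -2 and 2. The PACAP columns are blue throughout, as the selection requires, and PACAP repeat 3 is paler than repeats 1 and 2 in most rows.

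Most members fell only slightly more than the limit. The mean PACAP minus untreated difference of the members began at -2.02 (log2), ended at the limit and had a median of -1.14, a 2.20-fold lower level, against a median of 0.00 over all probesets. Of the 98 members, 64 fell by less than 1.2 log2 units, 9 by at least 1.5, and 2 were at least 4-fold lower. The median standard error of the difference, from the linear model fitted to all arrays, was 0.15. The limit has no natural break around it, because 39 members lay within 0.1 inside it and 55 probesets that met the other limits lay within 0.1 outside it. The last member, ranked 98, had a difference of -1.0003 and the nearest probeset outside stood at -0.999.

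The member ranked 1, a probeset of sequence cluster Bt.20027, had log2 levels of 8.76, 8.67 and 8.15 on untreated arrays 1, 2 and 3, and of 6.29, 6.30 and 6.92 on the PACAP arrays. With TNF it read 8.17, 8.15 and 8.16. Its PACAP arrays were all below the untreated and TNF arrays, and its TNF arrays were nearly identical, at the level of untreated repeat 3. The mean fell from 8.53 ± 0.33 (SD, n = 3) to 6.51 ± 0.36, a 4.07-fold lower level. The fall was unequal between repeats, at -2.47, -2.37 and -1.23 (log2) in repeats 1, 2 and 3.

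The member ranked 2, of sequence cluster Bt.27989, stood at 8.93, 8.97 and 9.14 on the untreated arrays and at 6.59, 6.91 and 7.50 on the PACAP arrays. With TNF its levels were 9.21, 9.31 and 8.83, which enclose the untreated values. The mean fell from 9.01 ± 0.11 (SD, n = 3) to 7.00 ± 0.46, or 4.03-fold, and PACAP was lower than TNF by a difference of -2.12 log2 units (SE 0.22), the widest separation between the treatments among the members.

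The member ranked 3 was dimmer. It read 6.66, 6.69 and 6.24 untreated, 6.35, 6.49 and 6.29 with TNF, and 4.39, 4.42 and 4.89 with PACAP. Its mean fell 3.91-fold, and its level with PACAP, 4.57 ± 0.28 (SD, n = 3), lay under the lower quartile of untreated levels on the array, 4.73, where array values of this kind understate a fold. Without detection calls, how much of so low a value is background is unknown.

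Members with a steadier response followed. The member ranked 5 went from 9.72, 9.83 and 9.68 untreated to 8.07, 8.23 and 8.17 with PACAP, with differences of -1.65, -1.60 and -1.51 in the 3 repeats. The member ranked 6 went from 9.41, 9.50 and 9.49 to 7.84, 7.81 and 8.12, and its TNF levels of 9.36, 9.49 and 9.50 lay almost on the untreated ones. The member ranked 8 was among the brighter ones, at 10.99, 11.05 and 11.17 untreated and 9.41, 9.49 and 9.74 with PACAP, or 2.87-fold lower. Its TNF arrays, at 11.30, 11.28 and 11.26, were all above its untreated arrays, by a mean of 0.21. In these 3 members the groups with and without PACAP were far apart compared with the spread of the arrays.

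The other members among the 15 largest falls had mean differences from -1.61 (ranked 4) to -1.37 (ranked 15). The member ranked 4 reached 5.11, 5.46 and 6.09 with PACAP from 7.20, 7.13 and 7.15 untreated, so that its PACAP level was clearly higher in repeat 3. The member ranked 14 varied most between repeats among these, with differences of -2.06, -1.31 and -0.80. The member ranked 10 varied little, with differences of -1.45, -1.60 and -1.32, and had levels of 7.00, 7.17 and 6.68 with TNF against 7.03, 7.02 and 6.70 untreated.

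**Figure D2:**
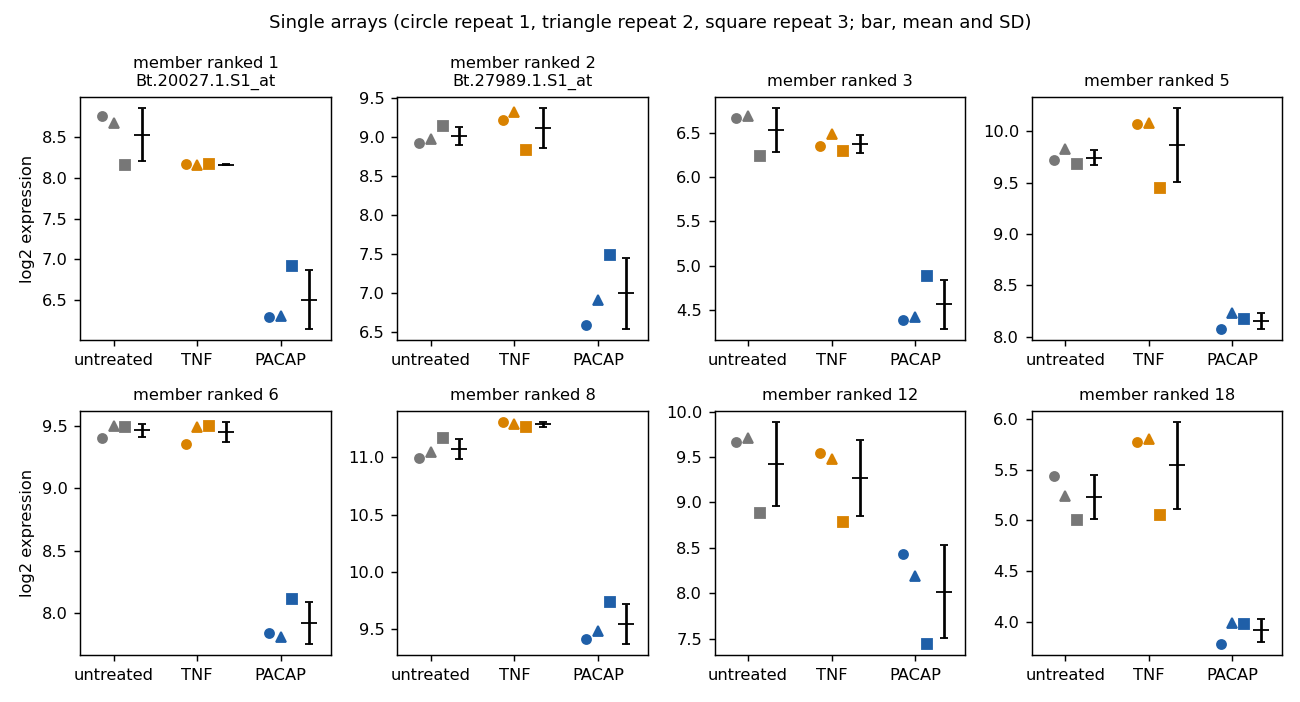
Log2 expression on single arrays for the members ranked 1, 2, 3, 5, 6, 8, 12 and 18, by group (circle, triangle and square for repeats 1, 2 and 3; bar, mean and SD of the 3 arrays), with a separate vertical scale in each panel. In each panel the 3 PACAP arrays lie below the untreated arrays, and the member ranked 12 reads lowest in repeat 3 of every group.

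The members began mostly in the brighter part of the array. Their untreated levels had a median of 8.32 (quartiles 7.58 and 9.65) against 6.71 for all probesets. Of the 98, 45 lay in the brightest 25% of untreated levels, 43 in the next 25%, 9 in the third and 1 in the dimmest. With PACAP their median level was 7.15, and 36 of them ended under that array-wide untreated median of 6.71. A probeset near the floor of the scale has little room to fall 2-fold. How far this accounts for the bright starts of the members was not tested. Of the members, 96 are of the kind whose ID ends in _at, designed to be unique to 1 transcript, and 2 of the kind _a_at, shared by transcripts of 1 gene. These kinds are 93.3% and 5.33% of all probesets. No member is of the kinds _s_at or _x_at, which can pick up several genes. They are 0.979% and 0.379% of all probesets, so few of either would be among 98.

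After TNF the members lay mainly slightly below the untreated level, inside a window that allowed both directions equally. The mean TNF minus untreated difference of the members had a median of -0.24 (quartiles -0.33 and -0.03), against -0.01 over all probesets. It was below -0.2 in 55 members, within 0.2 of 0 in 36 and above 0.2 in 7. The PACAP and TNF differences share the untreated arrays, so a high untreated reading lowers both. Near the lower edge of the window the split was arbitrary. A total of 32 members lay within 0.1 inside it, among them the member ranked 4 at -0.398 and the member ranked 36 at -0.397, while the nearest probeset excluded for TNF had -0.408. At the upper edge the member ranked 18 had 0.315 and the nearest probeset outside had 0.462.

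The label "not TNF" therefore describes a small measured mean and does not show that TNF had no effect. The 95% confidence interval of the TNF difference (limma) had a median half-width of 0.35 in the members, against 0.24 over all probesets. The interval stayed inside the window for 14 members, reached beyond it for 84, and stayed within 1 log2 unit of 0 for 97. The exception was the member ranked 13, whose interval ran from -1.36 to 0.60. Over all 24016 probesets the same 3 counts were 14146, 9870 and 22881. None of the members was called lower or higher with TNF (limma, adjusted p under 0.05), where 0.575% of all probesets were called lower and 1.33% higher. At an unadjusted limma p under 0.05, 18 members were lower and 1 higher, against 6.74% and 5.44% of all probesets. With the repeat number as a block in the fit, 3 members were called lower with TNF, those ranked 13, 17 and 84, and 0 higher, where 2.52% and 2.81% of all probesets were. With repeats 1 and 2 alone, 19 members were called lower and 3 higher (limma, adjusted p under 0.05), where the shares of all probesets were 6.24% and 5.89%. The rule used this contrast, so these counts are set down and nothing is read from them.

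The 7 members with a TNF difference above 0.2 were those ranked 8, 18, 27, 64, 85, 87 and 92, picked out after their values were seen. In those ranked 8, 85 and 92 all TNF arrays were above, and all PACAP arrays below, the untreated arrays. The member ranked 85 read 7.81, 7.84 and 7.825 untreated, 8.06, 8.13 and 8.12 with TNF and 6.75, 6.54 and 7.12 with PACAP. The member ranked 64, at 11.71 ± 0.15 (SD, n = 3) untreated, read 12.07, 12.20 and 11.63 with TNF and 10.62, 10.78 and 10.49 with PACAP. TNF arrays 1 and 2 lay above its untreated arrays of 11.75, 11.84 and 11.54, and TNF array 3 lay among them.

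**Figure D3:**
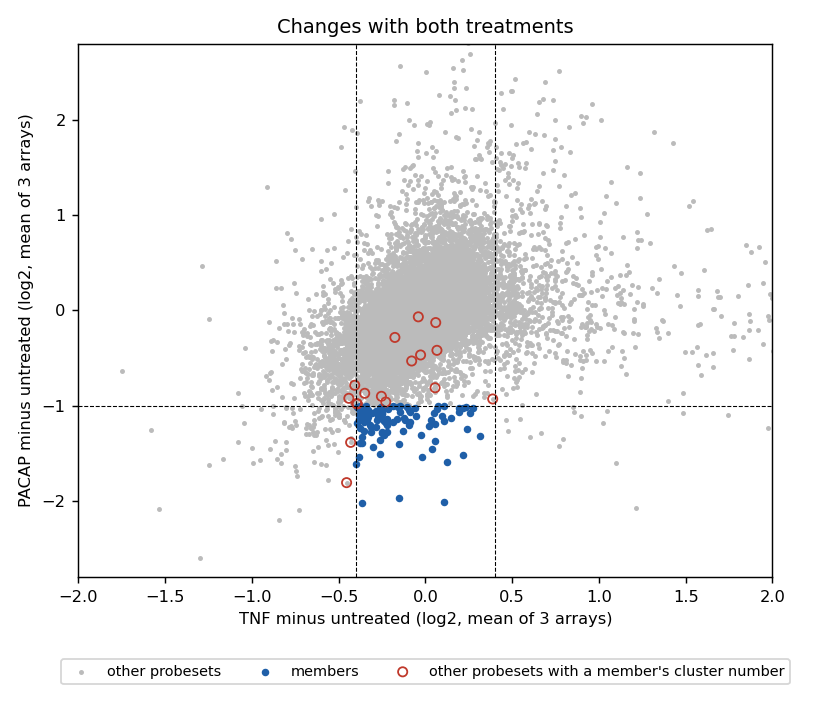
Mean PACAP minus untreated difference (vertical, log2) against mean TNF minus untreated difference (horizontal, log2) for all probesets, with the members in blue, other probesets that carry a member's cluster number ringed in red, and the limits of the rule dashed; 52 probesets lie outside the axes. The members crowd toward the upper and left edges of their box, at PACAP differences just below -1 and TNF differences between -0.4 and -0.2.

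Compared with TNF-treated cells directly, the members were lower with PACAP by a median of -0.97 log2 units, from -2.12 to -0.63. All 3 PACAP arrays lay below all 3 TNF arrays in 94 members, where the same holds for 12% of all probesets, and below all 3 untreated arrays in 98, where it holds for 16.8%. The 4 members whose PACAP and TNF arrays overlapped were those ranked 13, 36, 81 and 96, all with TNF differences below -0.35. In the fit over all probesets, 91 members were called lower with PACAP than with TNF and 96 lower than untreated (limma, adjusted p under 0.05), where 5.1% and 8.49% of all probesets were called. The rule fixed both directions with these same arrays, so the counts support nothing. The 2 members not called against untreated were those ranked 13 and 93, and with the repeat number as a block all 98 were called, where 12.7% of all probesets were. The member ranked 13 read 8.97, 9.04 and 7.79 untreated, 8.47, 8.57 and 7.61 with TNF and 7.47, 7.71 and 6.43 with PACAP. Its fall was even across repeats, at -1.50, -1.33 and -1.35, and the array-to-array spread came from repeat 3.

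The size of the fall differed by repeat number, while its direction was fixed by the rule. The median PACAP difference of the members was -1.29 in repeat 1, -1.28 in repeat 2 and -0.89 in repeat 3. The smallest of the 3 falls was that of repeat 3 in 86 members, that of repeat 1 in 6 and that of repeat 2 in 6. Over all probesets the difference of smallest size was in repeat 3 for 46.2%. In 35 members the fall in repeat 3 was at least 0.5 smaller than the mean of the other falls, and in 17 members the 3 falls agreed within 0.25. All 3 falls reached 1 log2 unit in 24 members. Both sides of the difference moved. Untreated repeat 3 was the lowest untreated array in 71 members, against 35.8% of all probesets, and PACAP repeat 3 was the highest PACAP array in 60, against 39.4%.

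In the medians over the members, the smaller fall in repeat 3 was accompanied by lower untreated levels and by higher PACAP levels. Relative to the mean of repeats 1 and 2, repeat 3 of the members had a median difference of -0.23 without treatment, -0.29 with TNF and 0.17 with PACAP. The same medians over all probesets were 0.01, 0.04 and 0.02. No label says how repeat 3 differed, and whether it was another culture, animal or processing run was not tested. TNF differences of the members had medians of -0.23, -0.19 and -0.18 in repeats 1, 2 and 3. In 68 members the TNF difference had 1 sign in all repeats, and in 21 its sign in repeat 3 was opposite to that in both other repeats. The member ranked 1 is among these 21, with TNF differences of -0.593, -0.52 and 0.009. The signs were not counted over all probesets, so nothing is read from these 2 counts.

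In 19 members repeat 3 read below both other repeats in all 3 groups, or 19.4% against 11.7% of all probesets. In 4 of these, ranked 12, 13, 15 and 93, it was lower by at least 0.5 in every group, against 2.20% of all probesets. The member ranked 12 read 9.67, 9.70 and 8.89 untreated, 9.54, 9.48 and 8.79 with TNF and 8.43, 8.18 and 7.44 with PACAP. The member ranked 15 read 10.42, 10.51 and 9.76 untreated, 10.57, 10.54 and 9.74 with TNF and 9.12, 9.10 and 8.37 with PACAP. In both, PACAP was lowest within each repeat, and the gap between repeat 3 and the other repeats was smaller than the fall with PACAP.

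**Figure D4:**
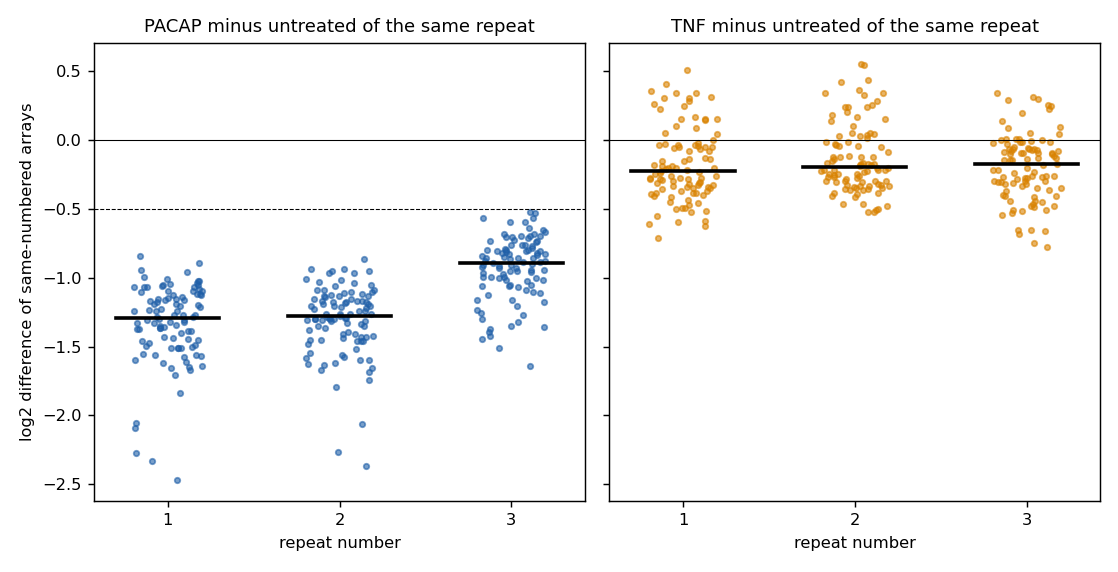
Log2 differences between same-numbered arrays for the 98 members, PACAP minus untreated on the left and TNF minus untreated on the right, by repeat number (points, members; thick bars, medians; dashed line, the limit of -0.5 that selected the members). The PACAP medians are -1.29, -1.28 and -0.89, and the TNF medians lie between -0.23 and -0.18.

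When the rule was applied to the arrays of only 2 repeats, the fall of the probesets it picked could be read in the repeat it had not used. Leaving out repeat 1, the rule picked 81 probesets, of which 63 are members. In repeat 1 all 81 were lower with PACAP, and 81 were lower by at least 0.5, with a median difference of -1.24. Leaving out repeat 2, it picked 72, and all 72 were lower by at least 0.5 in repeat 2, with a median of -1.31. Leaving out repeat 3, it picked 168, of which 81 are members. In repeat 3 all 168 were lower with PACAP, 128 of them by at least 0.5, with a median of -0.73. Of all probesets, 48.7%, 50.2% and 49.0% were lower with PACAP in repeats 1, 2 and 3. Over all probesets, a fall of at least 0.5 was seen in 9.13%, 9.48% and 4.74% in repeats 1, 2 and 3. The direction of the fall was thus the same in the left-out repeat in each case, while its size was smaller in repeat 3. Untreated repeats 1 and 2 of the members lay close together, with a median SD of 0.05. With the arrays called technical repeats, each of these may be no independent check of the other.

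The TNF difference of the probesets so picked was also read in the repeat that the rule had not used. Of the probesets picked without repeat 1, 61 of 81 had a TNF difference between -0.4 and 0.4 in repeat 1, 17 were at or below -0.4 and 3 at or above 0.4. In repeat 2 these numbers were 56, 10 and 6 of 72, and in repeat 3 they were 127, 40 and 1 of 168. The shares inside the window, 75.3%, 77.8% and 75.6%, were below the 87.9%, 88.1% and 88.1% of all probesets. The shares at or below -0.4, 21.0%, 13.9% and 23.8%, were above the 6.52%, 5.66% and 6.55% of all probesets. TNF differences were less precise in the members, with a median 95% interval half-width (limma) of 0.35, against 0.24 over all probesets. A fixed window is left more easily where arrays vary more. How much of these gaps in shares is due to that was not tested. The PACAP and TNF differences of a left-out repeat share its untreated array, and whether the arrays of different repeats are independent cultures is not stated.

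Some members are measured by more than 1 probeset. The number after "Bt." in an ID is that of the sequence cluster from which the probesets were designed, and probesets with the same number were taken here as probes for the same cluster. The 98 members carry 91 cluster numbers, of which 7 appear with 2 members each. Both members of a cluster were chosen by the rule, so their shared direction is built in. Their falls differed by 0.03 (ranked 12 and 15) to 0.45 (ranked 7 and 61), and their TNF differences by at most 0.21. The members ranked 5 and 18 share a cluster and had TNF differences of 0.12 and 0.32. The member ranked 18 read 5.44, 5.25 and 5.00 untreated, 5.78, 5.80 and 5.05 with TNF and 3.78, 3.98 and 3.98 with PACAP. In both, TNF repeats 1 and 2 stood above the untreated arrays and TNF repeat 3 did not. The members ranked 27 and 87 also share a cluster and had TNF differences of 0.24 and 0.22. The members ranked 12 and 15, with the low repeat 3 described above, are another such pair.

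A further 17 probesets, from 14 clusters, carry the cluster number of a member without meeting the rule themselves. They are different probe sets read on the same arrays, and what they show is limited by the fact that those of the same clusters that met the rule were counted as members. All 17 had a mean PACAP difference below 0, with a median of -0.87 (quartiles -0.96 and -0.47), against 0.00 over all probesets. In the fit over all probesets, 12 of 17 were lower with PACAP and none higher (limma, adjusted p under 0.05), where 8.49% of all probesets were called lower. The count was 5 without untreated repeat 1 and 7 without untreated repeat 2. With TNF none was called in either direction by the same limma fit, where 0.575% of all probesets were called lower and 1.33% higher. At an unadjusted limma p under 0.05, 4 of 17 were lower and 1 higher with TNF, against 6.74% and 5.44% of all probesets, and their median TNF difference was -0.23.

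The calls of these probesets are given by level, with no test. The share of all probesets called was not counted separately for the brighter and dimmer 50% of the array. All 9 in the brighter 50% of the array were called lower with PACAP, and 3 of the 8 in the dimmer 50% (limma, adjusted p under 0.05). With the repeat number as a block in the fit, the 9 were again called and 5 of the 8, where 12.7% of all probesets were called lower. The probeset in the cluster of the member ranked 14 fell furthest. It read 9.79, 9.81 and 9.28 untreated, 9.31, 9.36 and 8.85 with TNF and 7.72, 7.83 and 7.91 with PACAP, a difference of -1.81 (SE 0.17). It had a larger fall than the member itself and missed the rule only by its TNF difference of -0.45. The probeset in the cluster of the member ranked 47 likewise fell by 1.39 and missed only by a TNF difference of -0.43. The probeset in the cluster of the member ranked 64 read 9.99, 9.91 and 10.10 untreated, 10.63, 10.53 and 9.99 with TNF and 8.93, 9.18 and 9.10 with PACAP. As in that member, its TNF arrays 1 and 2 lay above all untreated arrays and TNF array 3 lay among them, and its PACAP difference of -0.93 fell just short of the limit.

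At the other end, a probeset in the cluster of the member ranked 36 read between 2.90 and 3.08 on all arrays, near the lowest values of the table, with a PACAP difference of -0.07. The second probeset of the cluster of the member ranked 2 read 4.92, 4.78 and 4.84 untreated and 4.38, 4.44 and 4.47 with PACAP. Its PACAP arrays were all below its untreated arrays, which holds for 16.8% of all probesets. It was not called lower with PACAP (limma, adjusted p under 0.05), but it was called with the repeat number as a block. Its difference of -0.42 was far smaller in size than the -2.01 of that member. Levels of different probesets are not comparable, and whether the dimmer probesets bind the same transcript was not tested.

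**Figure D5:**
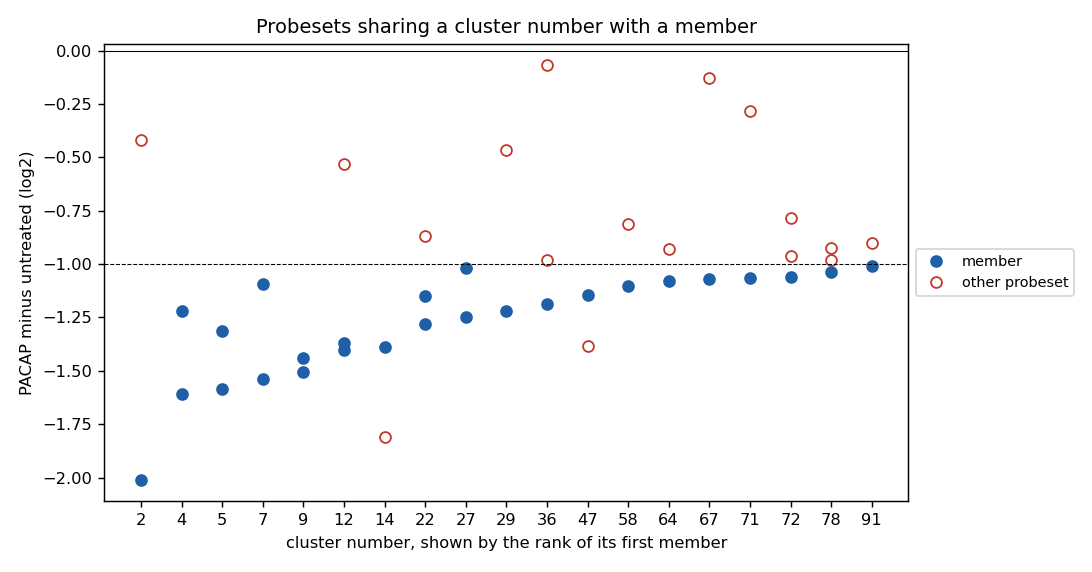
Mean PACAP minus untreated difference (log2) of all probesets in the 19 clusters that hold a member and at least 1 further probeset, by the rank of the cluster's first member (filled, members; open, the 17 probesets that did not meet the rule; dashed line, the limit of -1). All open circles lie below 0, and 2 lie below the limit, excluded by their TNF difference.

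The PACAP limits alone were met by 208 probesets, of which the members are 47.1%, 94 had a TNF difference of -0.4 or lower and 16 one of 0.4 or higher. The members' values are set beside those of the 94 here with no test. Their median PACAP difference was -1.14 against -1.24, their median untreated level 8.32 against 8.08, and the fall was smallest in repeat 3 in 87.8% against 88.3%. Untreated arrays of the 94 were more spread, with a median SD of 0.23 against 0.15 for the members, and their repeat 3 lay further below the mean of repeats 1 and 2, by -0.38 against -0.23. These sets were divided by a measure made from the same untreated arrays, so no test of their difference was made. A further 13 probesets reached the mean limit but not the limit in every repeat.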

How the data were processed

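The authors deposited 1 log2 expression value for each probeset on each of 9 Affymetrix arrays. The submitters' processing notes name Affymetrix Expression Console and RMA, which corrects background, equalises arrays and summarises probes; version and settings: not given in the sources used here. RMA compresses differences of dim probesets, and the number of arrays limits the precision. Groups and repeat numbers come from the sample titles. The 112 control probesets were left out. Agilent arrays that the design text mentions were not analysed here.

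The rule was applied to the deposited values. Differences, SEs and intervals are from limma 3.58.1 (R 4.3.3), with group means fitted to all 9 arrays, empirical Bayes moderation and two-sided tests, adjusted by Benjamini-Hochberg over 24016 probesets; a call is an adjusted p under 0.05. The procedure was tested on simulated data with independent noise on each array. Such data lack the repeat structure of these arrays, so the test does not cover it. Deviations of same-numbered arrays from their group means correlated at 0.23 to 0.65, all over 0.1, and those of repeat 3 at 0.57 to 0.65. Repeats 1 and 2 of different groups also correlated, at 0.09 to 0.61. The numbers thus set repeat 3 apart but do not clearly tell repeats 1 and 2 apart. The fit above has no pairing by repeat number, and the fit with that number as a block is an alternative.

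The members, lists and tests were chosen with earlier results of these data known. The plan was to name by rank the 15 largest falls, members sharing a cluster and those next to a limit. Of these, the members ranked 9, 11, 22, 30, 46 and 97 are not described singly. All others named were picked after their values were seen. Gene lists, marker lists and promoter motifs could not be used without gene names.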

Additional observations from a re-analysis of the deposited data

How the results depend on the processing

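The number of members, 98, depends on the limits. It was 234 with a mean fall of at least 0.8, 34 with at least 1.2, and 65 with a TNF window of 0.3. It stayed between 78 and 118 with a TNF window of 0.5, without the limit on single repeats, without dim probesets, and after quantile, cyclic loess or median centring. Leaving out arrays gave 72 to 168 members, with 151 without PACAP replicate 3 and 168 without all arrays of replicate 3, the latter added after seeing the data; 81 of these 168 are among the 98. Without untreated replicate 3 there were 103, of which 65 are among the 98, and without all arrays of replicate 1 or 2 there were 81 and 72, of which 63 and 65 are. With the replicate block, 3 members were called with TNF where none was without it, and 5 of the 8 dimmer probesets that share a cluster with a member were called lower with PACAP where 3 were without it. The block moved the members called lower than untreated from 96 to 98, those called lower than with TNF from 91 to 97, and the probesets sharing a cluster from 12 to 14. Some other settings lowered the first 2 counts and some did not. At a limma adjusted p under 0.01 they were 89 and 68. Leaving out single arrays gave 89 to 98 members called lower than untreated and 68 to 94 called lower than with TNF. Without all arrays of replicate 3 both counts were 98. Leaving out arrays gave 0 to 22 members called with TNF, 1 each without TNF replicate 3 and without untreated replicate 3, and 22 without all of replicate 3. For the probesets that share a cluster with a member, 5 to 15 of 17 were called lower with PACAP when arrays were left out, 5 without untreated replicate 1 and 7 without untreated replicate 2. With untreated or PACAP arrays left out, the PACAP difference of the 15 largest falls, whose direction the choice of members fixed, ran from -2.42 to -1.01 and moved by more than the SD between arrays in 2 of 105 refits, the members ranked 1 and 3 without all of replicate 3. Promoter motifs and gene lists were not run.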

Other observations

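With the same limits turned upward, 195 probesets rose with PACAP while their TNF difference stayed within the window. With the treatments exchanged, 2 probesets fell with TNF while their PACAP difference stayed within it. Of the 112 control probesets, 0 met the rule, and their mean PACAP differences ran from -0.45 to 0.63.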
